A study of Mus musculus with 3 samples.

Results

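Wnt signalling genes were examined for Smad3 and JMJD3 peaks in mouse neural stem cells. The members are the genes that either peak list names as closest to a peak and whose symbol belongs to the Wnt ligands (Wnt), R-spondins (Rspo), the ligand-modifying enzyme gene Porcn, the Frizzled receptors (Fzd), the co-receptors Lrp5 and Lrp6, the R-spondin receptors Lgr4 to Lgr6, the secreted antagonists (Sfrp and Dkk), the cytoplasmic mediators (Dvl, Axin, Apc, Gsk3, Ctnnb1) or the nuclear factors (Lef1 and Tcf7). They number 54 of 16428 genes named in all. A gene enters this set only if it is the closest gene of at least 1 peak. Of the 61 coding genes with such symbols in a RefSeq table, Dkk1, Dkk4, Dkkl1, Rspo2, Rspo3, Sfrp5 and Wnt10b were named by no peak.

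The cells were wild-type neural stem cells of the cerebral cortex, taken from mouse embryos at stage E12.5 and grown with EGF and FGF. The 3 libraries (Smad3 or JMJD3 immunoprecipitation, and input DNA without antibody) all came from cells given TGFb at 5 ng/ml, for 30 minutes in both immunoprecipitations. The peak lists hold 98086 Smad3 and 63154 JMJD3 peaks, and no list of input was used here. There was 1 library per antibody and no untreated library, so no value below has a replicate error, and no value shows an effect of TGFb. The lists hold positions without heights or read numbers, so the depth behind a peak is unknown. Of 8 genes that mark neural stem cells, 8 had promoter peaks of both factors (55.1% of all named genes had both), while 0 of 3 microglial and 0 of 2 endothelial marker genes had any. Of 3 neuronal markers Tubb3 had both and the others neither. In the oligodendrocyte lineage Olig2 had both and Pdgfra Smad3 alone. Promoter peaks do not measure expression.

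Wnt proteins are lipid-modified by Porcn, leave the cell and bind Frizzled receptors together with Lrp5 or Lrp6. In the canonical branch this halts the destruction complex of Axin, Apc and Gsk3 kinases, so that beta-catenin, the product of Ctnnb1, accumulates and acts with Tcf and Lef factors in the nucleus. In the embryonic cortex the pathway is known for its part in patterning the dorsal side and in the balance between division and differentiation of progenitors. Smad3 is the DNA-binding effector of TGF-beta receptors, and JMJD3 removes methyl groups from lysine 27 of histone H3.

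Promoter sequences are shown for the genes with the widest promoter regions shared by Smad3 and JMJD3, so that the bases under those regions can be read beside their widths. They are the 250 bases before the start site in the RefSeq promoter table, on build GRCm38.p6, 5′ to 3′ on the strand of the gene. Capitals mark CAGAC, the core of the Smad box, and GGCGC, a GC-rich Smad element, on either strand (reverse complements GTCTG and GCGCC). Genes were ranked by whichever of both factors' width percentiles is lower, with peaks at most 10 bp apart joined. Axin1, which ranks between Gsk3a and Axin2, has no entry in the table.
Gsk3b, chr16:38088751-38089000, plus strand: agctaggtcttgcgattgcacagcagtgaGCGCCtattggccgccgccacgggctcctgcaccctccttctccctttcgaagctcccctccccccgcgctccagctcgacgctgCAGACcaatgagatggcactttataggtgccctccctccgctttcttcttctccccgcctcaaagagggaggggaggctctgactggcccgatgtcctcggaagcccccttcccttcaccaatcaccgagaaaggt
Gsk3a, chr7:25237852-25238101, minus strand: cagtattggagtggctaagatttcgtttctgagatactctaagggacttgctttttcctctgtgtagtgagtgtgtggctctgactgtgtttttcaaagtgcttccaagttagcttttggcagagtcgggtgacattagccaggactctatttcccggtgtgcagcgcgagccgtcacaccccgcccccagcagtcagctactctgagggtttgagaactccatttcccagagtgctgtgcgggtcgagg
Axin2, chr11:108920099-108920348, plus strand: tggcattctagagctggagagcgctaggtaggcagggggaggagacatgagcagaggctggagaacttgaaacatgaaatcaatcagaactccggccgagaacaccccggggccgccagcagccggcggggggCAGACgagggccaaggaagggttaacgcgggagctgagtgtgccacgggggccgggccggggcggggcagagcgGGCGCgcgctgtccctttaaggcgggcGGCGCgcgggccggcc
Fzd4, chr7:89404116-89404365, plus strand: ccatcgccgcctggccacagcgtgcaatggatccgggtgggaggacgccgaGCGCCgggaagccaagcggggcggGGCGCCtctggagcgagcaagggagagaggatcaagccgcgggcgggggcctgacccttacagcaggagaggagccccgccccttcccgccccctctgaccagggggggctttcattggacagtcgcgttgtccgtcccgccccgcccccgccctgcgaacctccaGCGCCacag
Fzd9, chr5:135251048-135251297, minus strand: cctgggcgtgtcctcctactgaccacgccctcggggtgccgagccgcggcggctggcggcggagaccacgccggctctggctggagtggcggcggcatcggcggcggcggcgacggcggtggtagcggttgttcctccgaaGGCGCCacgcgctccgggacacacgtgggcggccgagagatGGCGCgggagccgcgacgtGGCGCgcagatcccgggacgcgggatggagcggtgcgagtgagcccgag
The peak lists are on another build, mm9, and the start sites of both sources were not matched by coordinates. Measured from the start sites in the peak lists, the Smad3 and JMJD3 promoter regions of these genes all span the 250 bases upstream of the start, except that the JMJD3 region of Axin2 begins 231 bp upstream. Gsk3a, with no marked element in its stretch, has a GC content of 52%, against 76.4% at Fzd9 with 4 matches to GGCGC. Matches were counted on each strand, so that GGCGCC counts as 2.

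The letters were also searched in the whole window of 300 bases, from 250 before to 50 after the start, in the 46 promoters that the table holds for 37 members. CAGAC was found in 23 of the 46 (50%), against 49.6% of 32851 promoters in the table. GGCGC was found in 35 (76.1%), against 36.9% of all. Member promoters were also richer in G and C than all promoters, whose median was 52.7%. The medians were 68.7% in members with both factors, 77.7% with Smad3 alone (5 promoters) and 65.7% with neither. The 1 promoter of a member with JMJD3 alone had 71.7%. The part of base composition in the share with GGCGC was not tested. GTCTAGAC, the Smad palindrome, was in 0 member promoters and in 0.213% of all. The TCF/LEF letters CTTTGAT were found at Wnt11 and Wnt5b and CTTTGTT at Fzd7, Tcf7l2 and Wnt3, that is in 4.35% and 6.52% of member promoters against 3.73% and 5.85% of all. A match to these letters is not a measured binding site.

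At promoters, the pathway as a whole was near the level of all named genes, with counts that varied among its roles. A gene was counted as having a promoter peak when a peak that names it has its midpoint at most 1000 bp from the start site. Smad3 had a promoter peak at 38 of 54 members (70.4%, 95% exact binomial interval 56.4 to 82.0), where the share over all named genes was 73.1%. JMJD3 had one at 32 members (59.3%, 45.0 to 72.4), against 57.1% of all named genes. Both factors were listed at 29 members (53.7%, 39.6 to 67.4), against 55.1%. Smad3 alone was listed at 9 members (17.9% of all named genes), JMJD3 alone at 3 (1.95%) and neither at 13 (25%). The excess of Smad3 alone turned when the Smad3 list was reduced to its widest peaks, as many as JMJD3 has. Smad3 alone was then listed at 5 members and JMJD3 alone at 6, against 11.9% and 6.43% of all named genes. These intervals cover counting error only. With 1 library a factor, no test of the set was made. Set against all coding genes of the RefSeq table, whether named by a peak or not, the background shares were lower, at 52.6% for Smad3, 41.5% for JMJD3 and 40.1% for both, and the 61 coding members had 62.3%, 52.5% and 47.5%.

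The cytoplasmic mediators and nuclear factors all had promoter peaks of both factors, and most secreted and ligand-side members did not. All 9 cytoplasmic mediators and all 4 nuclear factors had both (13 of 13, interval 75.3 to 100). Of 15 receptor and co-receptor genes, 10 had both factors, 13 Smad3 and 11 JMJD3. Of the 26 genes of ligands, R-spondins, antagonists and Porcn, 6 had both (23.1%, 8.97 to 43.6), 12 had Smad3 (46.2%, 26.6 to 66.6) and 8 had JMJD3 (30.8%, 14.3 to 51.8). The intervals of these secreted and ligand-side genes lie below the 73.1% (Smad3), 57.1% (JMJD3) and 55.1% (both) of all named genes. This grouping into 3 sides was made with the values known, so its pooled intervals cannot test a difference between roles.

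**Figure D1:**
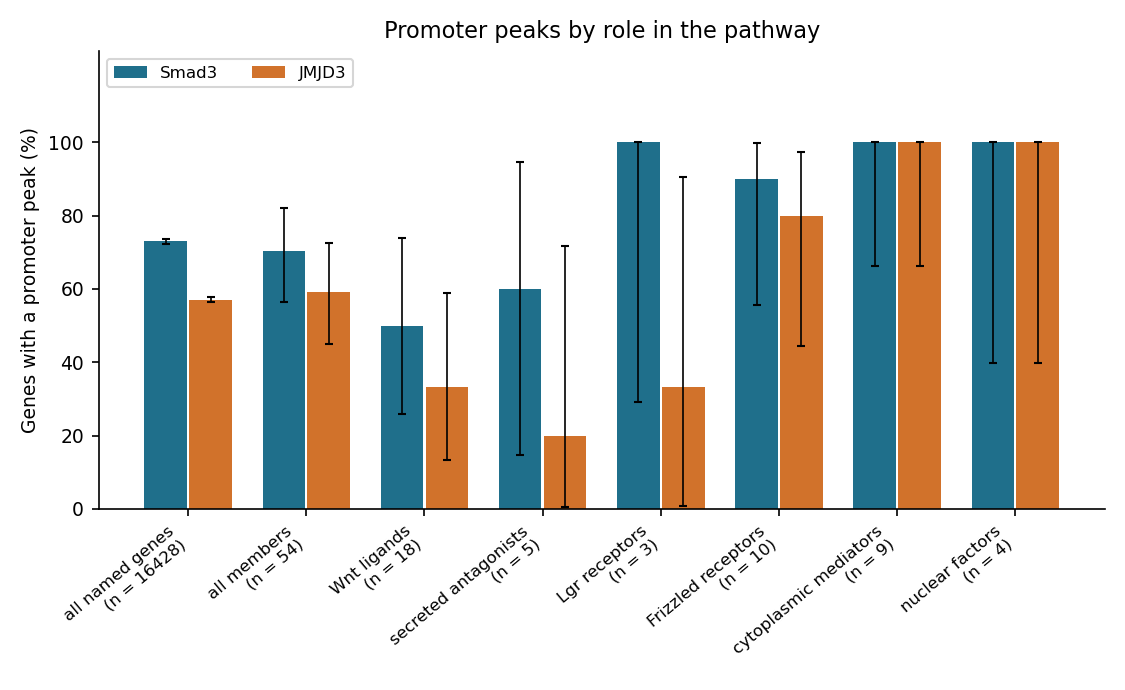
Share of genes with a promoter peak, in percent, for Smad3 (blue) and JMJD3 (orange), over all named genes, all members and 6 roles, with exact 95% binomial intervals for counting error. The 9 cytoplasmic mediators and 4 nuclear factors reach 100% for both factors, while the 18 Wnt ligands have 50% and 33.3%.

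Wnt ligand genes mostly had narrow promoter regions or none. Peaks of a list at most 10 bp apart were joined into regions, and the width of the widest promoter region of a gene is given. The lists hold no measure of strength, and whether width follows strength of binding was not tested. Smad3 was listed at 9 of 18 ligand genes (50%, 26.0 to 74.0) and JMJD3 at 6 (33.3%, 13.3 to 59.0). These intervals include the 73.1% and 57.1% of all named genes. The median widths were 360 bp for Smad3 and 540 bp for JMJD3. The medians over all genes with a promoter peak were 760 bp and 860 bp.

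Of the ligands, 5 had both factors (27.8%, 9.69 to 53.5), against 55.1% of all named genes. Wnt5a, best known for signalling outside the beta-catenin branch, had 911 bp of Smad3 (chromosome 14, 29318171 to 29319081) and, wholly within it, 740 bp of JMJD3. Wnt7b, a ligand of the developing cortex, had 601 bp and 720 bp, and here the Smad3 region lies wholly within the JMJD3 region. Joining up to 100 bp left this region as it was and made the Smad3 region before another of its named starts the widest, at 931 bp. At Wnt7a, a second cortical ligand, the Smad3 region of 940 bp runs from 837 bp upstream to 102 bp downstream of the start, and the JMJD3 region of 330 bp lies 133 to 462 bp downstream. The JMJD3 region of Wnt7a overlaps a further Smad3 region of 780 bp that starts 153 bp downstream, and joining up to 100 bp made 1770 bp of both Smad3 regions. Wnt11 had 251 bp and 360 bp, both centred close to 800 bp upstream, and Wnt9a had 160 bp for Smad3 inside 650 bp for JMJD3. The Smad3 region of Wnt9a is at the 0.192 percentile of width over all genes with a Smad3 promoter peak.

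Smad3 alone was listed at 4 ligand genes, Wnt1, Wnt10a, Wnt2b and Wnt4, with widths of 360, 260, 250 and 500 bp. No JMJD3 region, whatever gene it names, touches the 1000 bp around the starts of Wnt1, Wnt10a and Wnt2b. At Wnt4 a JMJD3 peak is centred 1003 bp downstream, just past the limit, and it does not overlap the Smad3 promoter regions. It does contain a further Smad3 region of 400 bp, centred 1068 bp downstream and so also past the limit. JMJD3 alone was listed at Wnt9b, with 430 bp around the start. The other 8 ligand genes, Wnt16, Wnt2, Wnt3, Wnt3a, Wnt5b, Wnt6, Wnt8a and Wnt8b, had neither, and no region of either factor touches 1000 bp around their starts. Wnt6 had peaks of both factors a little farther in, 1382 bp downstream for Smad3 and 1363 bp for JMJD3. The nearest Smad3 peak of Wnt3 lay 9361 bp upstream and its nearest JMJD3 peak 33969 bp downstream.

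Other ligand-side genes were mostly without promoter peaks. Porcn on chromosome X, whose enzyme attaches the lipid to Wnt proteins, had a JMJD3 region of 420 bp and no Smad3 region. The R-spondin genes Rspo1 and Rspo4, whose products strengthen Wnt responses through Lgr receptors, each had a distal JMJD3 region and no Smad3 peak.

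Of the 5 secreted antagonists, 3 had Smad3 (60%, 14.7 to 94.7) and 1 had JMJD3 (20%, 0.505 to 71.6), and these intervals include the 73.1% and 57.1% of all named genes. Sfrp2, which encodes a soluble Frizzled-related protein, had both factors, with 610 bp for Smad3 and 460 bp for JMJD3. Sfrp1 and Sfrp4, of the same family, had Smad3 alone, with 311 bp and 461 bp. Dkk2 and Dkk3 had neither, their nearest Smad3 peaks being centred 1877 bp and 1230 bp downstream of the start.

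Frizzled genes, which encode the Wnt receptors, had Smad3 at 9 of 10 promoters (90%, 55.5 to 99.7) and JMJD3 at 8 (80%, 44.4 to 97.5). Both intervals include the shares of all named genes, 73.1% and 57.1%. Fzd4, Fzd9 and Fzd7 had the widest regions by the lower of the 2 width percentiles. Fzd4 had 1081 bp for Smad3 and 1610 bp for JMJD3 (chromosome 7). At Fzd9 they were 1180 bp and 1070 bp, and at Fzd7 1690 bp and 960 bp. Fzd1 had 1420 bp for Smad3, from 914 bp upstream to 505 bp downstream, and 760 bp for JMJD3. Fzd2, Fzd3 and Fzd5 had wider JMJD3 than Smad3 regions, with 940, 820 and 821 bp against 720, 630 and 580 bp. At Fzd2 this order turned with peaks up to 100 bp apart joined, which gave 1110 bp for Smad3. Fzd8 had 570 bp and 450 bp, both upstream of the start. Fzd6 had neither, its nearest peaks lying 13409 bp downstream for Smad3 and 13344 bp for JMJD3.

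Fzd10 is listed with Smad3 alone, with a region of 830 bp, but the naming of peaks decides this. Its start lies 418 bp from that of 5930412G12Rik, which the RefSeq table gives as the antisense transcript gene Fzd10os. A JMJD3 region that names 5930412G12Rik overlaps the Smad3 region of Fzd10.

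With peaks at most 10 bp apart joined, Smad3 often sat in several separate regions at Frizzled starts. More than 1 Smad3 promoter region was listed at 7 of the 9 Frizzled genes with any, and at 17 of 38 members (44.7%, 28.6 to 61.7), against 26.3% of all genes with a Smad3 promoter peak. For JMJD3, 1 of 32 members, Fzd7, had more than 1 (3.13%, 0.0791 to 16.2), against 10.4% of all. These counts rest on the joining rule. Joining up to 100 bp made single Smad3 regions of 1110 bp at Fzd2, 1411 bp at Fzd4, 1190 bp at Lgr5 and 1770 bp at Wnt7a. The Smad3 counts of members are then lower, and the share over all genes under that rule was not computed. At Fzd5 3 Smad3 regions of 580, 221 and 381 bp lie between 1436 bp upstream and 333 bp downstream of the start. The JMJD3 promoter region of 821 bp covers the start and contains the 2 narrower ones, but does not overlap the widest. That Smad3 region is overlapped over most of its length by another JMJD3 region, of 590 bp. This JMJD3 region is centred 1161 bp upstream, just past the limit, and so counts as distal. Wnt7b and Tcf7l2 have 4 and 5 Smad3 promoter regions, and for both of these genes the lists name several start sites.

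The co-receptor genes differed from each other. Lrp6, which signals with Frizzled receptors, had 960 bp for Smad3 and 1150 bp for JMJD3 (chromosome 6). Its relative Lrp5 had 301 bp for JMJD3 alone, and its nearest Smad3 peak was centred 4988 bp downstream. Among the R-spondin receptors, Lgr4 had both factors, with 500 bp and 621 bp. Lgr5, a stem cell marker in several tissues, had Smad3 alone with 730 bp (1190 bp with joining up to 100 bp), as did Lgr6 with 480 bp centred 897 bp upstream, close to the limit of the window.

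Among the 54 members, Gsk3b, Gsk3a, Axin1 and Axin2 of the destruction complex held the widest shared promoter regions, with peaks at most 10 bp apart joined. Gsk3b, a kinase that marks beta-catenin for breakdown, had 1631 bp for Smad3 (chromosome 16, 38088221 to 38089851) and 1731 bp for JMJD3, both within the widest 5% of genes. Its relative Gsk3a had 2271 bp for Smad3, reaching 1891 bp upstream of the start, and 1391 bp for JMJD3. The scaffold gene Axin1 had 1161 bp and 1320 bp. Axin2, a scaffold and a classic target of the pathway itself, had 1331 bp and 1230 bp, with 1201 bp in common. Apc, the tumour suppressor of the complex, had 770 bp and 750 bp on chromosome 18, and its lower width percentile was 35.9. With peaks up to 100 bp apart joined, the order of the widest shared regions changed. The lower percentile was then 93.9 at Lef1, 92.8 at Gsk3b, 87.9 at Fzd4 and 86.4 at Gsk3a. The start of Gsk3b lies 260 bp from that of a neighbouring gene, BC031361.

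Ctnnb1 and the Dishevelled genes also had both factors. At Ctnnb1 the Smad3 region of 1020 bp contains the JMJD3 region of 780 bp, and a further Smad3 region of 881 bp begins 626 bp downstream of the start named for it. The Dishevelled genes, which relay the signal from Frizzled receptors, had wider JMJD3 than Smad3 regions. Dvl1 had 1041 bp against 541 bp, Dvl2 1010 bp against 830 bp, and Dvl3 920 bp against 710 bp. In each of the 3 the JMJD3 region contains the Smad3 region.

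The nuclear factors had both factors at 4 of 4 promoters, with unequal widths. Lef1, which carries beta-catenin to DNA, had an unequal pair that rests on the joining rule. Its Smad3 region of 2240 bp runs from 87 bp upstream to 2152 bp downstream of the start (chromosome 3, 130813301 to 130815540), at the 99.0 percentile of width, and its JMJD3 region of 650 bp lies inside it, 433 to 1082 bp downstream, at the 23.2 percentile. A second JMJD3 region of 1030 bp (130814491 to 130815520) follows just after it, also inside the Smad3 region, and with peaks up to 100 bp apart joined the JMJD3 region of Lef1 is 1700 bp. Tcf7l1, often a repressor of Wnt targets, had 1110 bp and 740 bp. Tcf7l2 had 751 bp for Smad3 inside 1100 bp for JMJD3. At Tcf7 both regions lay away from the start, 779 bp or more upstream, with 391 bp for Smad3 and 960 bp for JMJD3.

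Over the 29 members with both factors, the promoter regions of Smad3 and JMJD3 overlapped in every case (99.1% over all genes with both). JMJD3 had the wider region at 16 and Smad3 at 13, and the share with a wider JMJD3 region, 55.2% (35.7 to 73.6), was near the 58.1% of all genes with both. Over all members with a promoter peak, the median widths were 725 bp for Smad3 and 800 bp for JMJD3, against 760 bp and 860 bp over all genes. Without joining of peaks the order turned for Smad3, with 570.5 bp in members against 521 bp over all genes. The widest 10% of genes held 5 members for Smad3 and 2 for JMJD3.

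**Figure D2:**
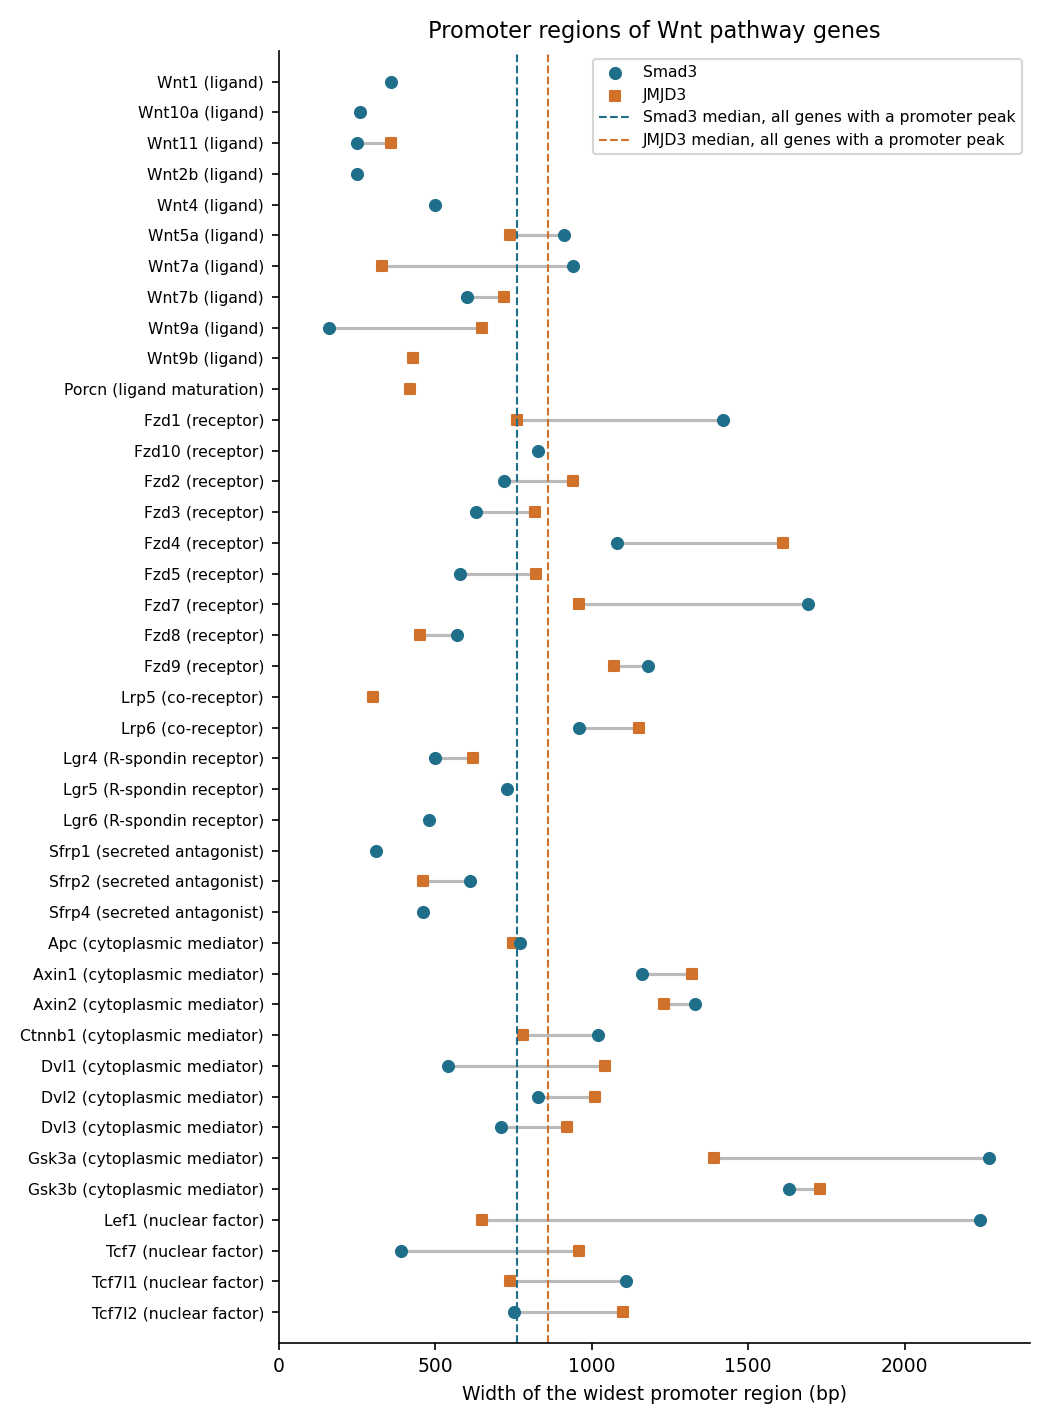
Width in bp of the widest promoter region of each member with a promoter peak, for Smad3 (circles) and JMJD3 (squares), ordered by role. Grey lines join both factors of a gene, and dashed lines mark the medians over all genes with a promoter peak (760 bp and 860 bp). Gsk3a, Lef1, Fzd7 and Gsk3b have the widest Smad3 regions, and Gsk3b and Fzd4 the widest JMJD3 regions.

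Away from promoters, Wnt pathway genes had more regions per gene than named genes in general. Distal regions are those whose peaks for the gene are all centred more than 1000 bp from its start. Members had 323 distal Smad3 and 217 distal JMJD3 regions, with a median per gene of 3 and 2 against 1 and 1 over all named genes. At least 10 distal Smad3 regions were listed for 12 of 54 members (22.2%), against 8.91% of all named genes, and at least 10 distal JMJD3 regions for 6 (11.1%), against 4.41%. The stretch of genome closer to a member's start than to any other named start was also longer in the median, at 91.7 kb against 64.0 kb. Per 100 kb of that stretch, summed over genes, members had 3.85 distal Smad3 and 2.58 distal JMJD3 regions, against 2.16 and 1.36 over all named genes. This density rests on the summed stretch, so it does not correct the counts for the longer median.

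Distal regions were concentrated in a few genes. Tcf7l2, Wnt7b, Fzd1, Ctnnb1 and Wnt5a together held 128 of the 323 Smad3 regions (39.6%) and 84 of the 217 JMJD3 regions (38.7%). Without these 5 genes the median per member was 3 for Smad3 and 1 for JMJD3. By role, nuclear factors had the highest medians, 9 and 8 regions per gene, and ligands had 3.5 and 2.5. The 8 ligand genes without a promoter peak had from 1 distal Smad3 region, at Wnt16, Wnt3a, Wnt6 and Wnt8a, to 10 at Wnt5b. That such a gene has a distal region of either factor follows from the rule of entry, since every member is named by a peak.

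Tcf7l2 on chromosome 19 had the most, with 34 distal Smad3 regions, of which 24 overlap JMJD3, and 25 distal JMJD3 regions, of which 22 overlap Smad3. Only 53 of all named genes had more in sum. The Smad3 regions reach from 199 kb upstream to 174 kb downstream of the closest start, with 17 upstream of that start, 9 inside the gene and 8 past its end. The lists name a pair of starts for this gene, and 7 of the 17 lie between them. The widest shared pair lies 75.0 kb downstream, where 1220 bp of Smad3 (56044161 to 56045380) lie inside 1360 bp of JMJD3. A row of shared regions also lies far upstream, at 148, 178 and 185 kb.

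Wnt7b on chromosome 15 had 31 distal Smad3 and 19 distal JMJD3 regions in a stretch of 187 kb, or 16.6 and 10.2 per 100 kb. Of the Smad3 regions 18 overlap JMJD3, and of the JMJD3 regions 16 overlap Smad3. Its widest shared pair is the widest distal pair among the 54 members, ranked by the narrower region, 1570 bp for Smad3 (85443521 to 85445090) and 1840 bp for JMJD3 (85443241 to 85445080), 31.6 kb upstream. Further wide pairs of Wnt7b lie 43.5 and 53.0 kb upstream and 116 kb downstream. All 4 pairs are wider than the promoter regions of the gene, 601 bp and 720 bp.

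Fzd1 on chromosome 5 had 25 distal Smad3 and 14 distal JMJD3 regions in a stretch of 594 kb, so that its density, 4.21 and 2.36 per 100 kb, was near that of the members together. Of the Smad3 regions of Fzd1, 11 overlap JMJD3. Wnt5a had 17 and 10 in 698 kb, with the farthest Smad3 region 437 kb upstream. Ctnnb1 had 21 and 16, and 15 of its 16 JMJD3 regions overlap Smad3. Shared pairs of Ctnnb1 include 830 bp and 890 bp 54.6 kb downstream and 790 bp and 1280 bp 66.0 kb upstream.

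Dkk3 had 13 distal Smad3 and 11 distal JMJD3 regions, all of them within 33.1 kb of its start, and 10 and 9 of these are shared. Its density, 12.9 and 10.9 per 100 kb, stands with that of Wnt7b. Fzd5 had 11 and 8, of which 7 and 7 are shared.

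Wide shared distal regions were also found at Wnt7a and Wnt5b. At Wnt7a 1570 bp of Smad3 and 1500 bp of JMJD3 overlap 64.3 kb downstream (chromosome 6, 91295801 to 91297370 for Smad3), where the promoter regions of the gene were 940 bp and 330 bp. Wnt5b, with no promoter peak, had 10 distal Smad3 and 8 distal JMJD3 regions. They include a pair of 1041 bp and 1040 bp inside the gene, 29.8 kb downstream of the start. Among receptors, Fzd9 had a pair of 1240 bp and 1560 bp 13.1 kb upstream, and Fzd2 a pair of 1240 bp and 1111 bp 22.3 kb upstream. Fzd8 had 2 distal regions of each factor, all unshared and 301 to 519 kb upstream, in a stretch of 790 kb.

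Several mediators with promoter regions of both factors had few distal regions. Axin1 and Dvl3 had 0 of either factor, Dvl2 had 1 and Dvl1 2 distal Smad3 regions, and neither Dvl1 nor Dvl2 had a distal JMJD3 region. Gsk3b had 3 of each. The stretches closest to Dvl1, Dvl2, Dvl3 and Gsk3a were short, from 9.82 kb to 18.3 kb. Axin2 had 9 distal Smad3 and 7 distal JMJD3 regions, 5 of each shared, in 231 kb. Apc had 11 and 6, and each of the 6 JMJD3 regions overlaps Smad3. Lef1 had 8 and 9, reaching 165 kb upstream for both factors.

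**Figure D3:**
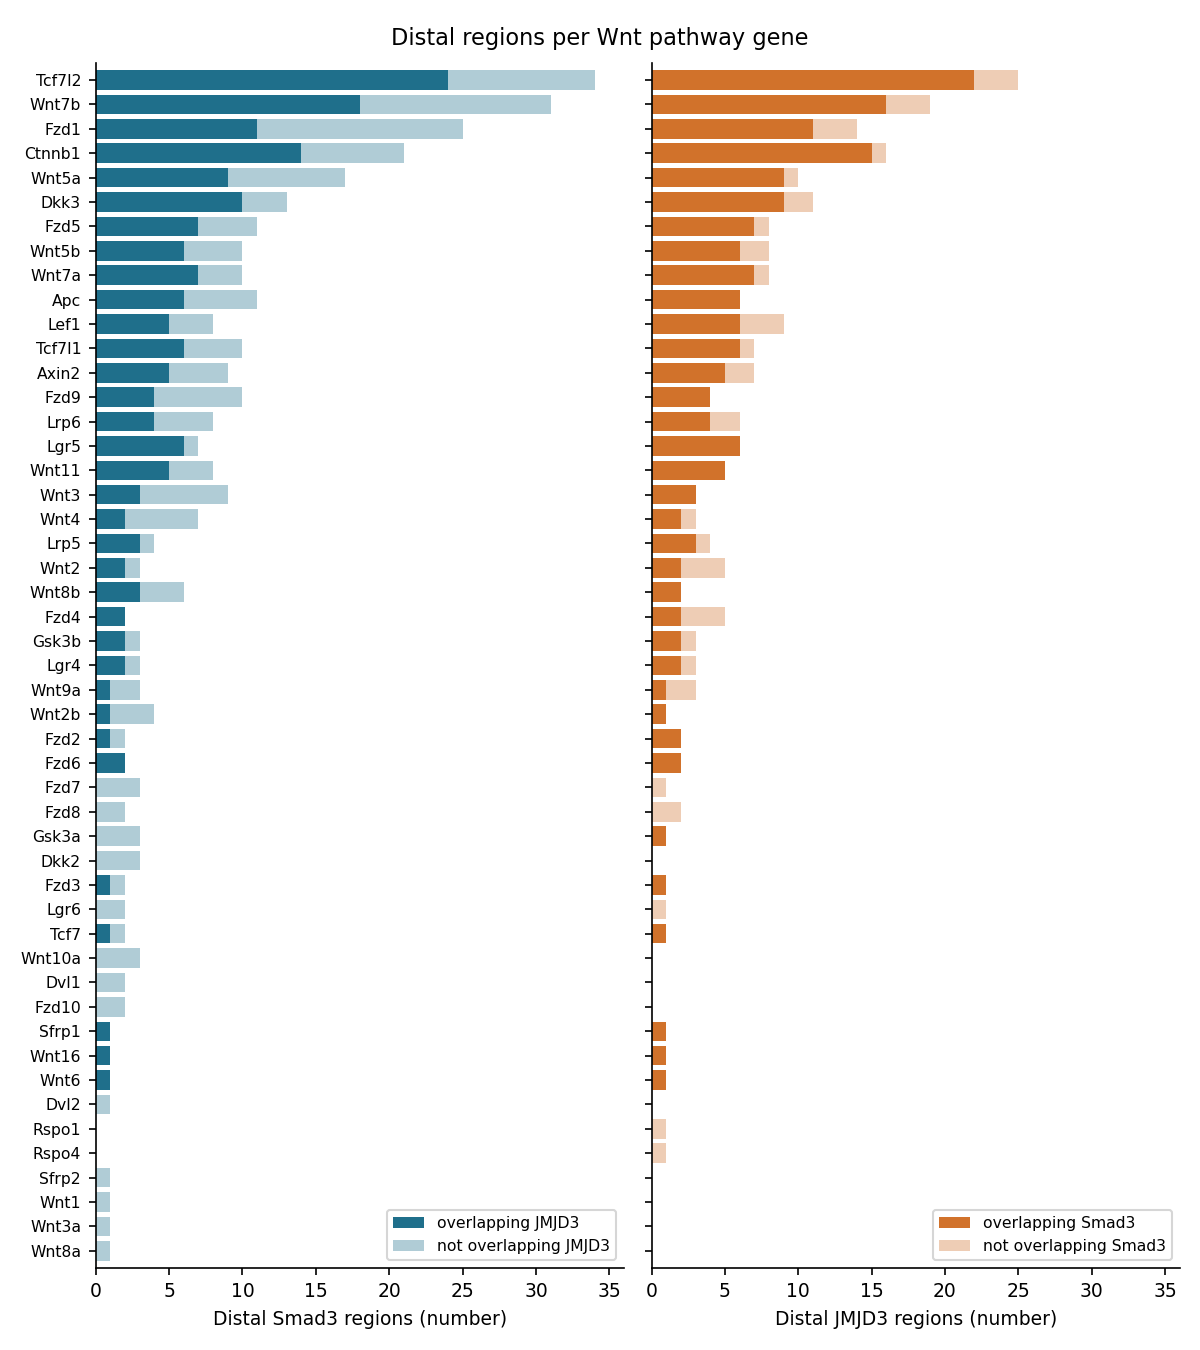
Number of distal regions of each member with any, for Smad3 (left) and JMJD3 (right), with the part that overlaps the other factor in the darker shade. Tcf7l2 has 34 Smad3 and 25 JMJD3 regions, and 22 of the latter overlap Smad3.

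Sharing of distal regions between the factors was close to that over all named genes. Of the distal Smad3 regions of members, 176 of 323 overlap a JMJD3 region (54.5%, 48.9 to 60.0), against 51.4% of all. Of the distal JMJD3 regions, 174 of 217 overlap Smad3 (80.2%, 74.3 to 85.3), against 77.6%. Without the 5 genes with most regions these shares were 51.3% and 75.9%. Shared Smad3 regions had a median width of 555 bp and unshared ones 340 bp, and JMJD3 regions 685 bp and 480 bp. Over all named genes these medians were 550 and 350 bp for Smad3 and 670 and 450 bp for JMJD3.

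Sharing of Smad3 regions varied with distance from the start. Between 1 and 5 kb, 14 of 48 Smad3 regions of members overlap JMJD3 (29.2%, 17.0 to 44.1), against 41.5% of all such regions. Between 5 and 50 kb the share was 53.6% (44.9 to 62.1), and beyond 50 kb it was 64.2% (55.6 to 72.2), against 50.3% and 56.0% of all. The order over distance is thus the same in members and in all genes. For JMJD3 regions of members the shares were 84.2% (60.4 to 96.6), 74.5% (64.7 to 82.8) and 85.0% (76.5 to 91.4), with overlapping intervals, and 82.1%, 78.4% and 75.6% over all named genes. Beyond 50 kb the interval of the members begins just above the share of all, at 76.5% against 75.6%. The interval takes regions as independent, but of these 100 JMJD3 regions Tcf7l2 held 13, Ctnnb1 12, Fzd1 11 and Wnt5a 9. It therefore does not show a difference from all genes. The order of the JMJD3 shares over distance differs from that of all genes, which was not tested. The unshared Smad3 regions within 5 kb belong to 24 genes, with 4 at Fzd9 and 3 each at Wnt5a and Wnt7b. By position, 97 of the distal Smad3 regions lay inside the member gene (30.0%), 153 upstream (47.4%) and 73 past the gene end (22.6%), against 36.5%, 39.9% and 23.7% over all named genes.

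**Figure D4:**
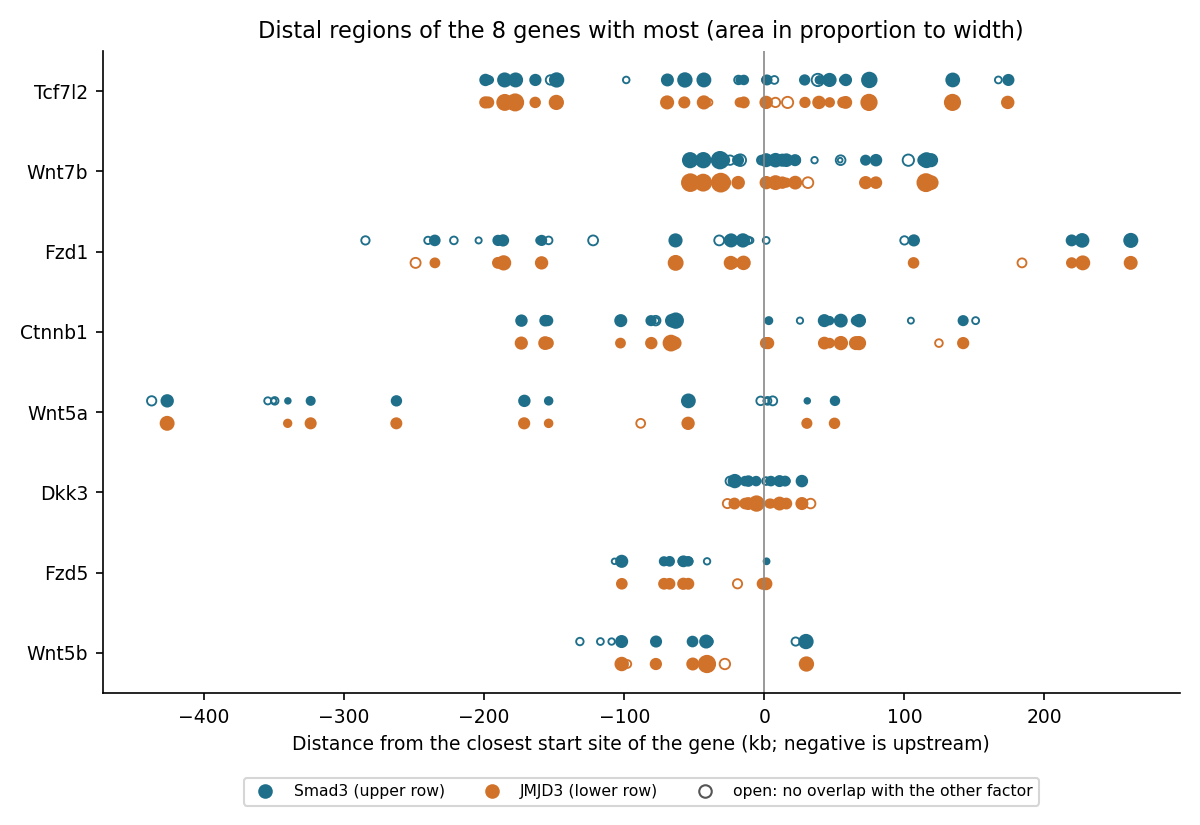
Distance in kb from the closest start site of the gene to each distal region, for the 8 members with the most, with Smad3 in the upper and JMJD3 in the lower row of each gene. Area is in proportion to region width, and open circles have no overlap with the other factor. Most JMJD3 regions stand under a Smad3 region, and those of Wnt7b and Dkk3 lie in a shorter stretch than those of Wnt5a and Fzd1.

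Other genes of the pathway outside these families, from a list of 54, had promoter peaks at shares above those of all named genes, with intervals that overlap those of the members. Smad3 was listed at 48 (88.9%, 77.4 to 95.8), JMJD3 at 41 (75.9%, 62.4 to 86.5) and both at 40 (74.1%, 60.3 to 85.0), against 73.1%, 57.1% and 55.1% of all named genes. The list was chosen with results of these data known, and no test was made. Kremen2, which encodes a receptor for Dkk proteins, was named by no peak. All 11 genes of alternative receptors and planar polarity had Smad3 and 9 had JMJD3, with Ror1 and Ror2, which encode Wnt5a receptors, having Smad3 alone at 550 bp and 421 bp. All 16 genes of the destruction complex, kinases and related mediators had Smad3 and 14 had both, for example the Gsk3 inhibitor gene Frat1 with 1590 bp and 1080 bp. Antagonists and turnover genes had both at 6 of 12. Kremen1, a relative of Kremen2, had 970 bp and 1660 bp, and the ubiquitin ligase gene Rnf43 had neither.

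Nuclear partners of beta-catenin and Tcf factors included wide shared regions. Bcl9l, a beta-catenin cofactor gene, had 2180 bp for Smad3 and 2220 bp for JMJD3, and the Groucho corepressor gene Tle3 had 1431 bp and 2661 bp with 38 and 35 distal regions. Of 3 genes often used as pathway targets, Ccnd1, which encodes cyclin D1, had 2921 bp and 1670 bp, and Myc had 1941 bp and 1250 bp. Sp5 had no promoter peak, with 8 distal Smad3 and 6 distal JMJD3 regions.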

How the data were processed

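Chromatin immunoprecipitation peaks of 1 Smad3 and 1 JMJD3 library were analysed. CASAVA, Bowtie 0.12.7, MACS 1.4 and build mm9 are named, without roles, per the submitters' processing notes. Thresholds and any use of input are not stated there. Per the file headers, the deposited values are peak positions, the signed distance of the peak from its closest start site and that gene's names. No peak score is present, so region width is given, and whether it follows strength of binding was not tested.

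Genes were taken from the name column. Peaks of a list at most 10 bp apart were joined. The joining and overlap code was tested on simulated data. Shares carry exact Clopper-Pearson 95% intervals (scipy 1.17.1). No test was made, because there is 1 library per antibody. The members and gene lists were chosen with earlier results of these data known. Every member is placed by role and promoter class. Values are given for up to 4 members per role with both factors, ranked by the lower width percentile, for each with 1 factor, and for the 8 members with most distal regions. Ctnnb1, Axin2, Lef1, Tcf7l1, Tcf7l2, Wnt7a, Wnt7b and Lrp6 are always described, and others were named after their values were seen. Entrez IDs of all 54 members are in the RefSeq table (GRCm38.p6), which was used for names, background genes and promoter sequences. Alternatives changed the window, the joining, the overlap rule and the peaks used.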

Additional observations from a re-analysis of the deposited data

How the results depend on the processing

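Of 40 alternative values, 35 were classed as the same as those reported and 5 as moved. The class is broad. Members with both factors ranged from 22 to 33, against 29, and all of these were classed as the same. So was the median Smad3 promoter width without joining, 570.5 bp against 725 bp. With windows of 500 to 5000 bp, 35 to 44 members had Smad3 promoter peaks (64.8% to 81.5%), against 70.3% to 80.6% of all named genes. For JMJD3 they numbered 28 to 35 (51.9% to 64.8%), against 54.8% to 63.9%. In the wider 50% of regions they numbered 31 and 24 (57.4% and 44.4%), against 62.1% and 44.9%. Requiring 50% reciprocal overlap lowered the shared part of distal regions to 44.0% for Smad3 and 66.4% for JMJD3, and midpoints within 200 bp gave 47.7% and 71.9%. Over all named genes these rules gave 41.6%, 66.0%, 43.9% and 69.5%, so the lower values follow from the stricter rules. Without joining, the median JMJD3 promoter width was 546 bp, against 651 bp over all genes, since single peaks are narrower. Counting all coding genes of the families was added after seeing the data. No paired analysis was possible because each antibody has 1 library. Depth is unknown, so a missing peak does not show that a factor is absent.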
